A study of Mus musculus with 4 samples.

Results

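The sphingosine-1-phosphate (S1P) pathway was followed through 8 genes, *S1pr1*, *S1pr2*, *S1pr3*, *Sphk1*, *Sphk2*, *Spns2*, *Sgpl1* and *Sgpp1*, chosen by gene symbol from the 18373 genes of the expression table. All 8 passed the filter on low counts and are among the 13628 genes tested. The study asked what the lncRNA *Airn* does in liver sinusoidal endothelial cells (LSECs), the fenestrated cells that line the hepatic capillaries. Primary LSECs came from Balb/c mice of 8 weeks by collagenase perfusion, density gradient and anti-CD146 beads, with no transgene or deletion named in the labels. They were cultured for 24 h and then given for 48 h either a control siRNA (NC, 2 libraries) or siRNA against *Airn* (si*Airn*, 2 libraries), and single-end reads of 50 bases were made on a BGISEQ-500 instrument.

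The labels call the libraries of a group biological replicates but do not say whether they came from separate mice or cultures, so p-values measure only the spread between these libraries. The protocol speaks of 2 separate siRNAs, whereas the titles of both si*Airn* libraries name siAirn1. Total counts lay between 17308382 and 18371959 per library. *Airn* itself had 7 and 3 counts in the NC libraries and 11 and 9 counts in those labelled si*Airn*, so its count was not lower in the latter. *Airn* did not pass the filter, and si*Airn* below means the libraries carrying that label.

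S1P is a lipid made inside cells by sphingosine kinases and carried out of endothelial cells by the transporter SPNS2. Outside, it binds G protein-coupled receptors, of which S1PR1 couples to Gi and strengthens endothelial junctions, while S1PR2 and S1PR3 also couple to other G proteins. S1P is removed by the lyase SGPL1, which cleaves it irreversibly, and by phosphatases such as SGPP1, which return it to sphingosine. In blood vessels the pathway is known for barrier function, vascular tone and the exit of lymphocytes from tissues, and in the liver S1P also acts on stellate cells.

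Of the 8 members, 0 rose and 2 fell in si*Airn* at an adjusted p under 0.05 (edgeR's quasi-likelihood test, Benjamini-Hochberg adjustment over all genes tested), and 4 had an unadjusted p under 0.05, as had 34.0% of all genes tested. The members that fell were *S1pr1* and *Spns2*, the major endothelial receptor and the exporter. At the adjusted threshold 16.8% of all genes were called in either direction, 8.27% as higher and 8.56% as lower. The study counted a gene as changed when its fold passed 1.4 and its p was below 0.05, and does not say whether that p was adjusted. By that rule with the unadjusted p 2 members passed, *Spns2* as lower and *S1pr3* as higher, where 9.96% of all genes passed. The NC and si*Airn* libraries did not overlap for 6 of the 8 members, a pattern that 62.7% of all genes tested also had. The median log2 fold change was -0.016 over the members and 0.0013 over all genes tested, with 4 members above and 4 below 0. Without either NC library, which leaves 1 in that group, the members lost their calls in edgeR, as did nearly all genes. At an unadjusted p under 0.05 there was 1 member without NC replicate 1, where 25.1% of all genes passed, and there were 3 without NC replicate 2, where 22.3% did. Without si*Airn* replicate 2 only *Spns2* was called, among 10.4% of all genes, and DESeq2 on all libraries called 3 members, *S1pr1*, *Spns2* and *S1pr3*, and 15.1% of the genes it gave an adjusted p. When libraries were scaled on 13 pan-endothelial genes, which raised the median of all genes by 0.46, 2 members were called as higher, *S1pr2* and *S1pr3*, and 0 as lower, where 18.3% of all genes were called as higher and 0.271% as lower.

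In NC libraries the order of levels, compared per transcript length as FPKM, was led by *S1pr1* at 240.3 ± 19.3 FPKM (SD, n = 2). *Spns2* followed at 60.5 ± 0.573 FPKM and *Sgpl1* at 39.8 ± 1.46 FPKM. *Sgpp1* at 28.3 ± 1.06 FPKM and *Sphk2* at 27.4 ± 0.792 FPKM overlapped each other. *S1pr2* at 9.44 ± 0.205 FPKM and *S1pr3* at 8.63 ± 1.17 FPKM also overlapped, and *Sphk1* was lowest at 2.93 ± 1.06 FPKM. All other neighbours in this order were apart in both libraries. In si*Airn* libraries *Sgpl1*, at 42.9 ± 1.46 FPKM, stood above *Spns2*, at 31.8 ± 5.15 FPKM. The place of *S1pr2* and *S1pr3* was exchanged there, but their libraries again overlapped.

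**Figure D1:**
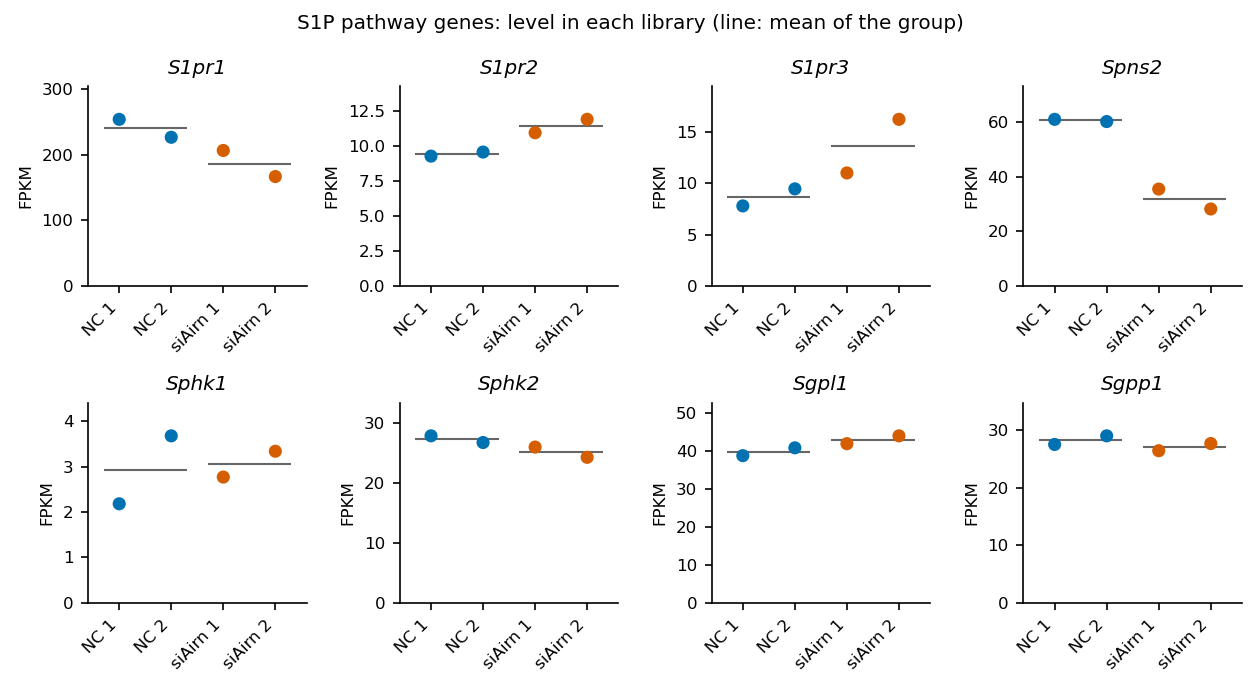
Level of each of the 8 members in FPKM (vertical axes, from 0) in the 2 NC (blue) and 2 si*Airn* (orange) libraries, with a grey line at each group's mean. The si*Airn* libraries lie at 28.2 and 35.4 FPKM for *Spns2*, below 60.1 and 60.9 FPKM in NC, whereas the groups lie close together for *Sgpl1*, *Sgpp1* and *Sphk2*.

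*S1pr1*, the Gi-coupled receptor that supports endothelial barrier function, had 747 and 669 CPM (counts relative to library size, with TMM scaling) in the NC libraries and 589 and 481 CPM in the si*Airn* libraries. Both si*Airn* libraries lay below both NC libraries, and si*Airn* replicate 2 was the lowest. The log2 fold change was -0.40 (95% interval -0.65 to -0.15), a level 0.756 times that of NC, with an adjusted p of 0.0427 in edgeR. The gene lies on GRCm38 chromosome 3 from 115710433 to 115715072 on the minus strand, and no exonic base of it lies under another gene in GENCODE M21. The call was not kept without NC replicate 1 (log2 fold change -0.33), NC replicate 2 (-0.48) or si*Airn* replicate 2 (-0.27). Without either NC library nearly all calls over all genes were lost too. Of the 12 alternatives on all 4 libraries 7 kept the call, with adjusted p from 1.9e-08 to 0.9002. The lowest came from a fit with a block on replicate number, which the labels do not state to pair samples. The call was lost in limma on FPKM (-0.37, adjusted p 0.0776 to 0.192) and with GC content and length corrected (-0.40, 0.0614), where the fold change was about as large. When libraries were scaled on the pan-endothelial genes instead, the log2 fold change of *S1pr1* was 0.0431. Relative to the shift of all genes it was -0.41, but taking off that shift undoes the scaling and must return about the value with TMM.

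Of 13 listed pan-endothelial genes, 0 rose and 9 fell in the same libraries, and their summed level was 11412 to 12060 CPM in NC and 7646 to 8763 CPM in si*Airn*. Of 13 LSEC genes, 0 rose and 11 fell, with sums of 4178 to 4183 CPM in NC and 2675 to 2967 CPM in si*Airn*. *S1pr1* was 0.456 and 0.447 of the CPM of *Pecam1*, a junction protein of all endothelial cells, in NC and 0.493 and 0.492 of it in si*Airn*. Over the 13 genes, the ratio of *S1pr1* was higher in both si*Airn* libraries for 6, lower for 3 and overlapping for 4. It was lower against *Kdr*, the VEGF receptor 2, at 1.19 and 1.21 in NC and 0.910 and 0.871 in si*Airn*, as it was against *Tek* and *Emcn*. Against the summed list it was 0.0619 and 0.0587 in NC and 0.0672 and 0.0629 in si*Airn*. In bulk RNA, fewer cells of a type and less RNA per cell cannot be told apart, and the part of endothelial content in the fall of *S1pr1* was not tested.

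*S1pr3*, a receptor that couples to Gi, Gq and G12/13 and is known from stellate as well as vascular cells, had 34.4 and 41.9 CPM in NC and 47.1 and 70.3 CPM in si*Airn*. The groups did not overlap, though si*Airn* replicate 1 lay nearer to NC replicate 2 than to si*Airn* replicate 2. The log2 fold change was 0.62 (95% interval 0.18 to 1.06) with an adjusted p of 0.0646 in edgeR, so it was not called. On all 4 libraries it was called by DESeq2 (0.62, adjusted p 0.0115) and by edgeR's likelihood-ratio test (0.62, 0.0107). It was also called without si*Airn* replicate 1 (0.88, adjusted p 0.000617) but not without si*Airn* replicate 2 (0.30, 0.136), and the adjusted p ranged from 8.6e-09 to 0.289 over 16 alternatives, of which 6 called it. Of its exonic bases 1.01% lie under the lincRNA *Gm32834* on the opposite strand, which was not analysed here.

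Of 12 listed stellate cell and fibroblast genes, 4 rose, 0 fell and 8 were not called, and their summed level was 1172 and 1383 CPM in NC and 1428 and 1860 CPM in si*Airn*, the same order of the 4 libraries as for *S1pr3* and also for the hepatocyte list. *Pdgfrb*, the stellate and mural receptor of that list, had 62.8 and 73.5 CPM in NC and 78.7 and 115 CPM in si*Airn*. Against the summed CPM of the list, *S1pr3* was 0.0294 and 0.0303 in NC and 0.0330 and 0.0378 in si*Airn*. Its ratio to single genes was higher in both si*Airn* libraries for 7 of the 12, *Pdgfrb* among them, overlapped for 4 and was lower for 1, *Reln*, at 1.86 and 2.29 in NC and 1.51 and 1.71 in si*Airn*. The part of stellate cell content in the *S1pr3* values was not tested.

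*S1pr2*, which couples to G12/13 and tends to oppose S1PR1, had 25.4 and 26.3 CPM in NC and 29.04 and 32.0 CPM in si*Airn*. The si*Airn* libraries were both above the NC libraries, by a small margin. Its log2 fold change was 0.24 (95% interval 0.03 to 0.46) and was not called, with an adjusted p of 0.113 in edgeR. With GC content and length corrected it was 0.14 (adjusted p 0.350), and with scaling on the pan-endothelial genes it was 0.70 (0.0366). Over the 12 alternatives on all 4 libraries the adjusted p ranged from 0.0343, with the block on replicate number, to 0.351.

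The proportions of the receptor transcripts differed between the libraries. *S1pr1* was 32.6 and 24.0 times *S1pr3* in FPKM in the NC libraries and 18.8 and 10.3 times in the si*Airn* libraries. *S1pr1* made up 93.6% and 92.1% of the summed FPKM of the 5 S1P receptor genes in NC and 90.2% and 85.3% in si*Airn*. *S1pr1* was thus the main receptor transcript in every library, and the groups did not overlap in either ratio. The ratios are given as a description and were not tested.

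*Spns2*, the transporter through which endothelial cells release S1P, had 178 and 175 CPM in the NC libraries and 102 and 82.3 CPM in the si*Airn* libraries. The NC libraries nearly coincided, and both si*Airn* libraries lay far below them. The log2 fold change was -0.93 (95% interval -1.18 to -0.69), a level 0.523 times that of NC, with an adjusted p of 0.00574 in edgeR. *Spns2* lies on GRCm38 chromosome 11 from 72451638 to 72489904 on the minus strand, and 3.21% of its exonic bases lie under *Mybbp1a* on the opposite strand, which had a log2 fold change of 0.17 and was not called. The direction was the same in all 16 alternatives. Of the 12 on all 4 libraries 10 kept the call, with adjusted p from 1.1e-13 to 0.126. The lowest came from a fit with a block on replicate number, which the labels do not state to pair samples. Without NC replicate 1 (-0.92) or NC replicate 2 (-0.95) the call was lost, as were nearly all calls over all genes.

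Against the summed CPM of the pan-endothelial list, *Spns2* was 0.0147 and 0.0153 of it in NC and 0.0117 and 0.0108 of it in si*Airn*. Its ratio was lower in both si*Airn* libraries against 11 of the 13 genes and overlapped between groups for 2, *Cldn5* and *Vwf*. *Cldn5*, a tight junction gene, itself had a log2 fold change of -0.82, and some LSEC genes had lower values than *Spns2*, such as the lectin *Clec4g* at -1.33. Against *Pecam1*, *Spns2* was 0.108 and 0.117 in NC and 0.0854 and 0.0842 in si*Airn*. In FPKM it was 0.240 and 0.265 of *S1pr1* in NC and 0.172 and 0.169 of it in si*Airn*. Scaled on the pan-endothelial genes, its log2 fold change was -0.49 with an adjusted p of 0.126 and it was not called. The ratios are a description, with no test.

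**Figure D2:**
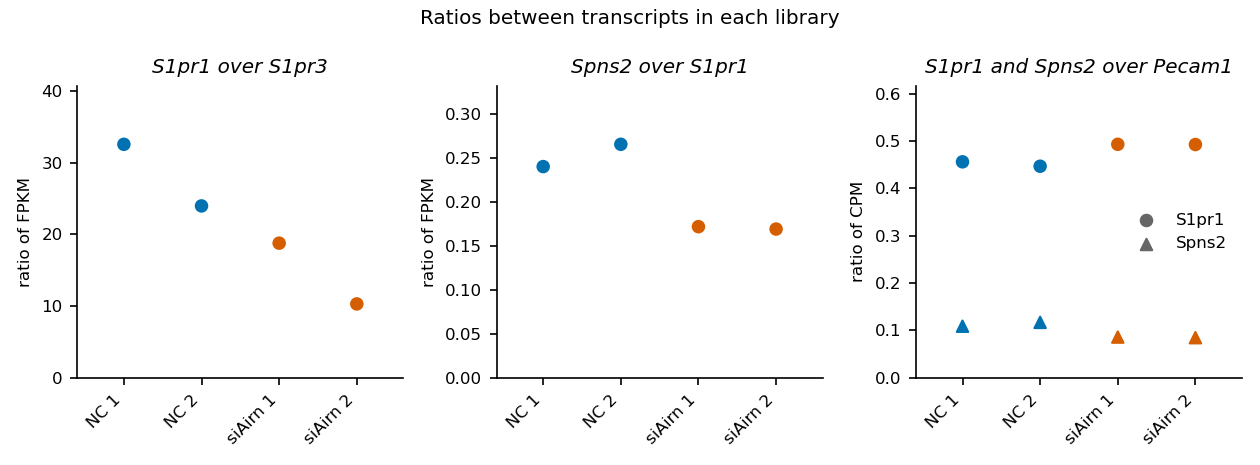
Ratio of *S1pr1* to *S1pr3* and of *Spns2* to *S1pr1* (FPKM) and of *S1pr1* (circles) and *Spns2* (triangles) to *Pecam1* (CPM) in each NC (blue) and si*Airn* (orange) library, all axes from 0. *Spns2* over *S1pr1* is 0.240 and 0.265 in NC and 0.172 and 0.169 in si*Airn*, while *S1pr1* over *Pecam1* is slightly higher in si*Airn*.

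**Figure D3:**
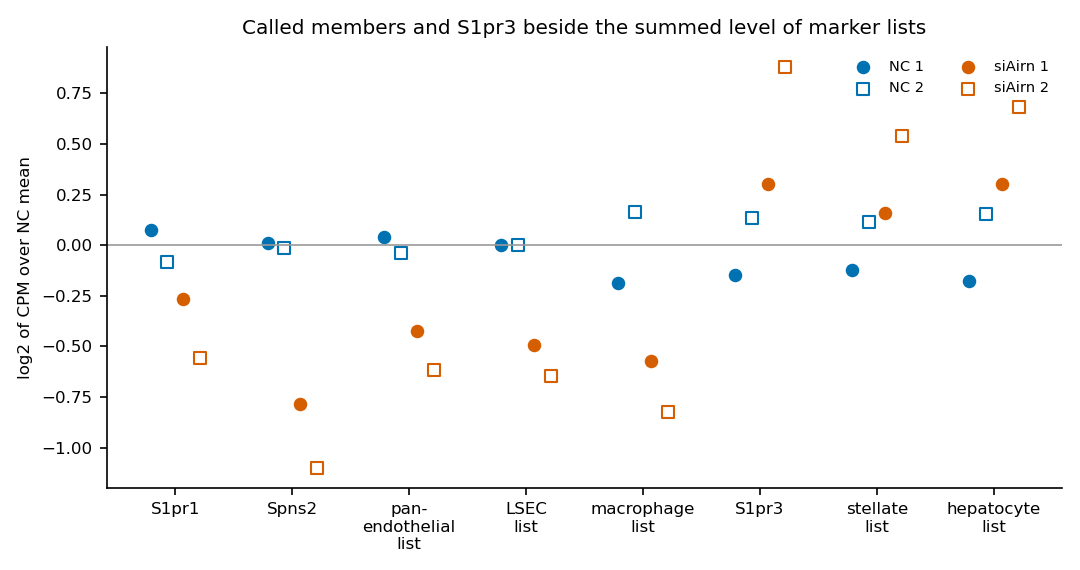
Level of *S1pr1*, *Spns2* and *S1pr3* and the summed level of 5 marker lists in each library, as the log2 of CPM over the mean of the 2 NC libraries. The si*Airn* points of *S1pr1* and *Spns2* lie below 0 with those of the pan-endothelial, LSEC and macrophage lists, and those of *S1pr3* lie above 0 with the stellate and hepatocyte lists.

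*Klf2*, the shear-responsive transcription factor on which the study turns, had 14.7 and 13.4 CPM in NC and 12.4 and 12.2 CPM in si*Airn*, for a log2 fold change of -0.19 that was not called (adjusted p 0.284 in edgeR). The study itself reported less KLF2 in LSECs after *Airn* silencing by other assays, namely qRT-PCR, western blot and confocal microscopy. *Nos3*, the endothelial nitric oxide synthase, had 35.2 and 30.02 CPM in NC and 24.5 and 20.2 CPM in si*Airn*, for a log2 fold change of -0.55 with an adjusted p of 0.0302. *Klf2* is itself known as a regulator of *S1pr1* in other cells. RefSeq windows on GRCm38.p6 were found for the members other than *S1pr1*, 12 windows in all for 7 genes, and their 250 bases before each start were searched on both strands for the letters CACCC, the core bound by KLF factors, AGATAA, bound by GATA factors, and AGGAAG, bound by ETS factors. Of all 32851 windows of that length, 52.0% held CACCC, 9.99% AGATAA and 29.5% AGGAAG.

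The stretches with a match are shown for the member that fell most and for the other 2 receptors, since these, beside *S1pr1*, have the largest fitted changes. Each is 30 bases on the gene's strand, with the match in capitals, and GGGTG and TTATCT are CACCC and AGATAA on the other strand:
*Spns2*, chr11:72475129-72475158, minus strand, match starting 119 bases before the start: gctctctgctccTTATCTgaggactttgta
*S1pr3*, chr13:51408378-51408407, plus strand, 228 bases before the start: agcccagttctgCACCCggttaggtatctg
*S1pr3*, chr13:51408469-51408498, plus strand, 137 bases before the start: gtataggtttggGGGTGggggtagatgatc
*S1pr2*, chr9:20976874-20976903, minus strand, 98 bases before the start: gtgtgtgtgtggGGGTGtggacaaaggggc

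The *Spns2* window held 0 CACCC, 1 AGATAA and 0 AGGAAG matches, and it lies inside the gene's longer GENCODE M21 span, outside its exons. The *S1pr3* window held 2 CACCC matches and the *S1pr2* window 1. The *Sgpl1* and *Sgpp1* windows held none of these letters, and the windows of *Sphk1* and *Sphk2* held between 0 and 4 CACCC matches each. AGATAA was also in 2 overlapping windows of *Sphk1* and AGGAAG in 1 other window of it. These are matches of letters, not binding sites, and the shares of all windows with each motif stand above.

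Of the kinases that make S1P, *Sphk2*, the mainly nuclear and mitochondrial enzyme, was the more abundant. *Sphk2* had 76.5 and 72.7 CPM in NC and 68.9 and 64.6 CPM in si*Airn*. Both si*Airn* libraries were just below the NC libraries. A log2 fold change of -0.16 was fitted (95% interval -0.33 to 0.004, adjusted p 0.155 in edgeR), and with GC content and length corrected it was -0.048 (0.670). Its value is uncertain, since 21.9% of its exonic bases lie under exons of *Dbp* and *Rpl18* on the opposite strand and the use of strand in counting is not given in the sources used here. *Dbp*, a circadian transcription factor, had 15.5 and 18.2 CPM in NC and 5.20 and 5.26 CPM in si*Airn*, for a log2 fold change of -1.69 with an adjusted p of 0.00496. The ribosomal gene *Rpl18* had a log2 fold change of -0.12 and was not called. The part of these shared bases in the *Sphk2* value was not tested.

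*Sphk1*, the cytosolic and growth factor-induced kinase, had 71 and 118 counts in NC and 91 and 117 counts in si*Airn*, or 4.14, 6.52, 5.03 and 6.61 CPM. The groups overlapped, and replicate 2 was the higher library in both. The log2 fold change was 0.12 with a wide 95% interval of -0.50 to 0.74 and an adjusted p of 0.776 in edgeR. With GC content and length corrected it was 0.22. It was below 0 without NC replicate 1 (-0.17) or si*Airn* replicate 2 (-0.09), and 0.49 without NC replicate 2 and 0.31 without si*Airn* replicate 1. On a linear scale the interval ran from 0.709 to 1.67 times the NC level. *Sphk2* was 12.8 and 7.29 times *Sphk1* in FPKM in NC and 9.40 and 7.28 times in si*Airn*, ratios that overlapped. The antisense gene *Gm29292*, not analysed here, covers 4.02% of the exonic bases of *Sphk1* on the opposite strand.

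*Sgpl1*, the lyase that ends the pathway by cleaving S1P, had 155 and 163 CPM in NC and 162 and 172 CPM in si*Airn*. The groups overlapped. Its log2 fold change was 0.07 (95% interval -0.09 to 0.23), with an adjusted p of 0.489 in edgeR, and it was 0.016 with GC content and length corrected. When 1 library was left out, it ran from 0.0277 to 0.1114. *Sgpp1*, the phosphatase of the endoplasmic reticulum that returns S1P to sphingosine, had 89.1 and 94.4 CPM in NC and 83.0 and 87.9 CPM in si*Airn*. The si*Airn* libraries lay just below. For this gene the log2 fold change was -0.10 (95% interval -0.26 to 0.06) with an adjusted p of 0.331 in edgeR. It lay between -0.1461 and -0.0625 with 1 library left out. With TMM scaling, the intervals of *Sgpl1* and *Sgpp1* exclude a change as large as that of *Spns2*, whose fitted level was 0.523 times NC. Scaled on the pan-endothelial genes, *Sgpl1* was at 0.53, *Sgpp1* at 0.36 and *Spns2* at -0.49. Taking off the shift of all genes, which undoes that scaling, returned 0.07, -0.10 and -0.95. In FPKM, *Spns2* was 1.57 and 1.47 times *Sgpl1* in NC and 0.846 and 0.640 times in si*Airn*.

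**Figure D4:**
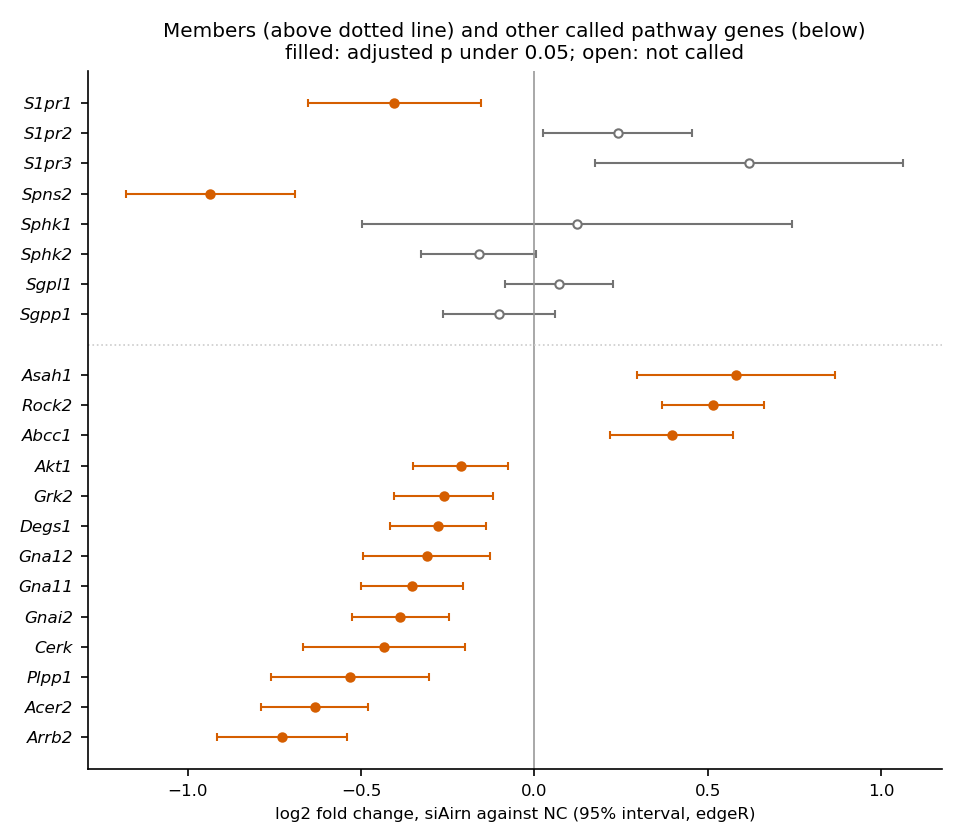
Log2 fold change of si*Airn* against NC with its 95% interval from edgeR for the 8 members (above the dotted line) and for the 13 other pathway genes with an adjusted p under 0.05 (below it). Filled orange points passed the threshold and open grey points did not, and *Spns2* at -0.93 lies farthest from 0.

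Beyond the members, 58 genes that share the pathway, listed by role, were in the table and 52 were tested. Of these 3 rose and 10 fell, 13 in all, with a median log2 fold change of -0.062. Of all genes tested 8.27% were called as higher and 8.56% as lower, shares that stand beside each list below as well. By the study's threshold 3 were higher and 3 lower. Without either NC library these genes lost their calls in edgeR, as did nearly all genes. DESeq2 on all libraries called 12, and with scaling on the pan-endothelial genes 7 were called as higher and 0 as lower. The list was written with results of these data known. The shares of all genes called by the study's threshold, by DESeq2 and with that scaling are those given for the members.

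Of 4 tested ceramidases, which release the sphingosine that the kinases use, 1 rose and 1 fell in edgeR, and only the fall was called by DESeq2. *Acer2*, the Golgi alkaline ceramidase, had 244 and 242 CPM in NC and 162 and 151 CPM in si*Airn*, for a log2 fold change of -0.63 with an adjusted p of 0.00508 in edgeR. *Asah1*, the lysosomal acid ceramidase, had 9.40 and 9.56 CPM in NC and 14.8 and 13.6 CPM in si*Airn*, for a log2 fold change of 0.58 with an adjusted p of 0.0232 (0.0736 in DESeq2). The groups were apart for both genes. The other 2 ceramidases tested were not called. The summed level of the list was 337 and 340 CPM in NC and 258 and 241 CPM in si*Airn*, mostly *Acer2*.

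Of 4 other genes of S1P transport and carriage that were tested, 1 rose and 0 fell. It was *Abcc1*, a multidrug transporter that can export S1P, with 71.5 and 77.8 CPM in NC and 94.3 and 102 CPM in si*Airn*, for a log2 fold change of 0.40 with an adjusted p of 0.0187 in edgeR. *Mfsd2b*, the S1P exporter of red cells and platelets, had 5.81 to 8.87 CPM over the 4 libraries and overlapped between groups. Of 4 other breakdown genes tested, 0 rose and 1 fell. *Plpp1*, a surface phosphatase of lipid phosphates, had 207 and 189 CPM in NC and 149 and 125 CPM in si*Airn*, for a log2 fold change of -0.53 with an adjusted p of 0.0165. *Plpp3*, its close relative, had 140 to 152 CPM and a log2 fold change of -0.01. *Plpp2*, also of this list, had 27.5 to 32.8 CPM and a log2 fold change of -0.075 (adjusted p 0.655 in edgeR). Thus *Plpp1* was called and *Plpp2* and *Plpp3* were not, a difference that was not itself tested.

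Of the other S1P receptors, *S1pr4*, known from leukocytes, had 0.759 to 1.19 CPM and was not called, and *S1pr5* had at most 0.175 CPM and did not pass the filter. *S1pr4* had an unadjusted p above 0.05 in edgeR, and DESeq2 gave neither gene an adjusted p.

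Of 15 tested genes that couple the receptors to the cell, 1 rose and 6 fell, where 8.27% of all genes tested rose and 8.56% fell. *Arrb2*, the arrestin that helps withdraw active receptors from the surface, had 64.8 and 58.5 CPM in NC and 36.8 and 37.7 CPM in si*Airn*, for a log2 fold change of -0.73 with an adjusted p of 0.00574 in edgeR. *Gnai2*, the most abundant of the Gi subunits listed by count, had 1208 and 1227 CPM in NC and 955 and 907 CPM in si*Airn*, for a log2 fold change of -0.39 with an adjusted p of 0.0114. The other genes that fell were the subunits *Gna11* (-0.35) and *Gna12* (-0.31), the receptor kinase *Grk2* (-0.26) and the kinase *Akt1* (-0.21), with adjusted p between 0.0153 and 0.0488. *Rock2*, a kinase that acts on the actin cytoskeleton, rose from 196 and 191 CPM in NC to 269 and 283 CPM in si*Airn*. Its log2 fold change was 0.51 with an adjusted p of 0.00687 in edgeR. The median of this list was -0.15.

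Ceramide synthesis and the routes from sphingomyelin and glycolipids gave 1 call each. Of 15 tested synthesis genes, 0 rose and 1 fell, *Degs1*, the desaturase of the last step, with 636 and 647 CPM in NC and 539 and 519 CPM in si*Airn* and a log2 fold change of -0.28. Of 9 genes of the other routes, 0 rose and 1 fell, *Cerk*, the ceramide kinase, with 213 and 190 CPM in NC and 162 and 137 CPM in si*Airn* and a log2 fold change of -0.43. The adjusted p values were 0.0238 and 0.0289 in edgeR. At an unadjusted p under 0.05 there were 6 and 2 genes, where 34.0% of all genes tested passed. The medians of the lists were -0.065 and -0.037.

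The genes nearest in pattern were found by the Euclidean distance of centred log2 CPM over the 4 libraries, among 10744 genes of at least 5 CPM on average. For *S1pr1* they were *Arhgap45*, *Vps9d1* and *Robo4*, an endothelial guidance receptor, at distances of 0.0262, 0.0273 and 0.0342. *Robo4* had 1070.3 and 972 CPM in NC and 829 and 695 CPM in si*Airn*. For *Spns2* they were *BC052040*, *Ntn4*, a netrin of basement membranes, and *Prkcq*, a protein kinase C, at distances of 0.0411, 0.0799 and 0.0833. *Ntn4* had 85.6 and 86.8 CPM in NC and 51.7 and 42.7 CPM in si*Airn*. With 4 libraries, such likeness describes these libraries only.

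Other cell types were followed by lists of their genes. Of 11 tested Kupffer cell and macrophage genes, 0 rose and 7 fell, and the sum of the list was 243 to 310 CPM in NC and 156 to 186 CPM in si*Airn*. Of 10 tested hepatocyte genes, 2 rose and 0 fell, with sums of 659 to 828 CPM in NC and 917 to 1193 CPM in si*Airn*. No lymphocyte, platelet or red cell gene was called in edgeR or DESeq2, with 2 of 5 tested lymphocyte genes and 0 of 5 tested platelet and red cell genes at an unadjusted p under 0.05. Lymphocyte genes summed to 8.84 to 10.2 CPM and platelet and red cell genes to 14.8 to 20.2 CPM over the 4 libraries. *Cdh5*, which defines endothelial cells, and *Stab1*, which marks LSECs, were detected in every library, at 1524 to 2625 CPM and 424 to 658 CPM. No listed marker in the table was at 0 in all 4 libraries, and the listed *Trac* and *Hbb-bs* were not analysed here. The part of these cells in the members' values was not tested.

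**Figure D5:**
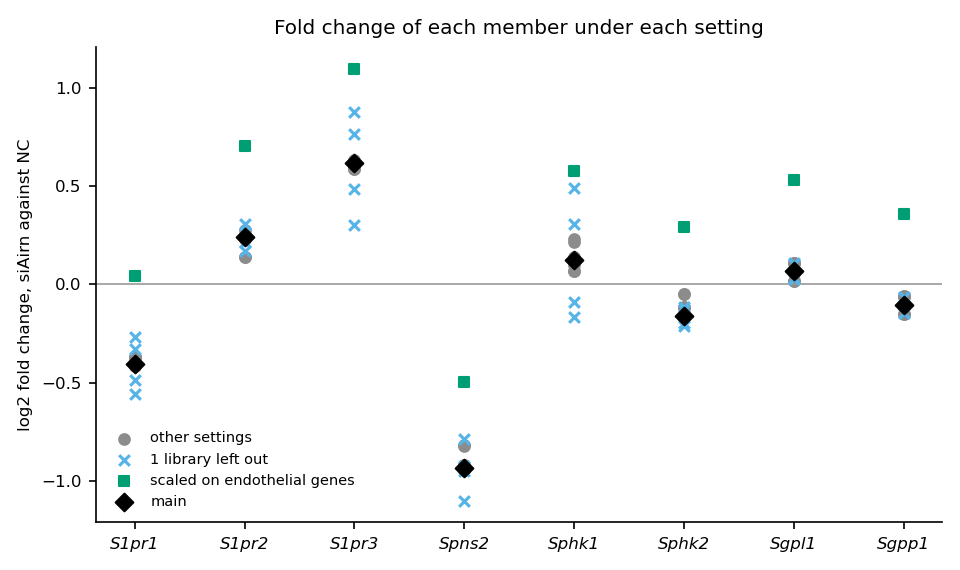
Log2 fold change of each member under the main setting (black), with 1 library left out (blue crosses), with libraries scaled on pan-endothelial genes (green squares) and under the other settings (grey). The endothelial scaling moves the median of all genes by 0.46, and it takes *S1pr1* from -0.40 to 0.0431 and *Spns2* from -0.93 to -0.49.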

How the data were processed

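RNA-seq of 4 libraries, grouped by their labels, was analysed. The authors deposited estimated counts per gene, which are not normalized, and a second value per gene that was read as FPKM, since the deposited header does not name its unit. The submitters' processing notes name BWA, Bowtie2 and RSEM and the build hg19, a human build, although the genes are those of mouse. The use of strand is not given in the sources used here. Between 76.5% and 76.8% of counts per library are exactly whole, genes at 0 included. The 4 columns of group means were not used.

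Counts were rounded and tested in R 4.3.3 with edgeR 4.0.16 (TMM, filterByExpr, quasi-likelihood test, no covariate, Benjamini-Hochberg adjustment over all genes tested), and the code was tested on simulated data. CPM is scaled by TMM factors of 0.985 to 1.02. The members and the lists were chosen with earlier results of these data known. Named were all members, each other pathway gene with an adjusted p under 0.05, the most counted gene of a list without one, genes overlapping a member's exons, *Airn*, *Klf2* and *Nos3*, and the 3 genes nearest in pattern to each called member. *Mfsd2b*, *Plpp2*, *Plpp3*, *S1pr5* and the single marker genes were added after their values were seen. Alternatives used DESeq2 1.42.0, limma 3.58.1 on log2(FPKM + 1) and log2(FPKM + 0.1), edgeR's likelihood-ratio test, and other filters and scalings. Others corrected for GC content and length, set a block on replicate number, or left out each library. Gene positions come from GENCODE M21 and promoter sequences from RefSeq, both GRCm38.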

Additional observations from a re-analysis of the deposited data

How the results depend on the processing

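Over the members, 102 of the 128 values from the alternatives kept direction and side of the threshold. The count of members called, 2 in the report, was 1 with limma on log2(FPKM + 1) or log2(FPKM + 0.1) after a filter at a mean of 1 FPKM, 0 with limma on log2(FPKM + 1) and no filter (4 at an unadjusted p under 0.05), and 1 after correction for GC content and length, which covered 94.7% of genes tested. Over all genes, 0 of 18042 were called by limma without a filter (4418 unadjusted) and 8.10% after that correction, against 16.8% in the report. The count of other pathway genes called, 13 in the report, was 7, all higher, when scaled on the pan-endothelial genes, 0 with limma and no filter (18 unadjusted), 8 after the GC content and length correction and 6 by the study's threshold. Leaving out 1 library gave 0 to 3 members and 0 to 14 other genes. Both counts were 0 without either NC library in edgeR, where 40 of all genes were called without NC replicate 1 and 0 without NC replicate 2 (1 and 3 members, and 3506 and 3106 of all genes, at an unadjusted p under 0.05). The lone sample of a group is there assumed to vary like the others.

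Values reversed when libraries were scaled on the pan-endothelial genes were *S1pr1* at 0.0431, *Sgpp1* at 0.36 and *Sphk2* at 0.29, a scaling that raises all genes by a median of 0.46. Taking off that shift, which undoes the scaling, returned *S1pr1* to -0.41 and *Spns2* to -0.95. *Sphk1* ran from -0.17 to 0.49 when 1 library was left out, and was below 0 without NC replicate 1 (-0.17) or si*Airn* replicate 2 (-0.09). The cause was not tested in the other cases.

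With the replicate block, 5 members (2 higher, 3 lower) and 27 other genes were called, where 35.5% of all genes were. *S1pr3* (adjusted p 0.000166), *S1pr2* (0.0343) and *Sphk2* (0.0424) joined *S1pr1* and *Spns2*. With the block and the GC content and length correction 4 and 24 were called, where 32.3% of all genes were, *S1pr3* and *Sgpp1* joining. The numbers are not stated to pair samples, and 2 pairs cannot show it. The differences between replicates correlated at 0.233 across 13628 genes and at 0.353 across the 10745 of at least 5 CPM, which are not independent replicates. *Sphk1* has the fewest counts of the members, 71 to 118 per library.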

Other observations

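*S1pr3* was not called, so genes near it in pattern were looked up after its values were seen. The nearest of 10744 genes were *Flnc*, a filamin of muscle-like cells, at 33.0 and 39.9 CPM in NC and 45.1 and 68.4 CPM in si*Airn*, *Hgf*, the hepatocyte growth factor, at 35.0 and 43.1 CPM in NC and 47.0 and 68.7 CPM in si*Airn*, and the complement gene *C3*, at 12.3 and 15.3 CPM in NC and 17.4 and 26.7 CPM in si*Airn*. Their distances were 0.0235, 0.0551 and 0.0632, and none had an adjusted p under 0.05 in edgeR (0.0647 to 0.0752). All had si*Airn* replicate 2 as the highest library, as did *S1pr3*, a likeness that follows from how they were picked.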
